A study of Mus musculus with 26 samples.

Results

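Mast cells release histamine and proteases from preformed granules, and they also make cytokines and chemokines. The transcripts of 10 such genes were followed here. They are Il4, Il6, Il13, Tnf, Ccl2, Ccl3, Ccl4, Csf1, Lif and Tgfb1, and each symbol was matched to 1 Ensembl gene among the 52636 genes measured. All 10 were found. The list was set by gene name, although earlier results of these data were known when it was chosen.

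The data comprised 26 RNA sequencing libraries in 6 groups, from mice that carried Prss57 (wild-type) or lacked it (Prss57-/-, labelled NSP4 KO). Prss57 encodes neutrophil serine protease 4, and the knockout allele lacks exon 2. Granulocyte-macrophage progenitors (GMPs) and common myeloid progenitors (CMPs) were sorted from the bone marrow of female mice, with 4 libraries per cell type and genotype. Bone marrow-derived mast cells (BMMCs) were grown from sorted GMPs of male mice with IL-3 and stem cell factor, with 5 libraries per genotype. They are a cultured model of mast cells, and neither the labels nor the methods name an activating stimulus for these libraries. The mice were age-matched littermates, whose age is not in the labels. GMPs and CMPs shared 1 sequencing run, and BMMCs were sequenced in another, so that in any comparison of BMMCs with progenitors the effects of cell type, sex, culture and run cannot be told apart. Both genotypes of a cell type shared their run.

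IL-4 and IL-13 are neighbouring type 2 cytokines that share a receptor chain. TNF and IL-6 are inflammatory cytokines whose transcripts are made on demand and decay quickly. CCL2, CCL3 and CCL4 are chemokines that draw monocytes and lymphocytes, CSF1 supports macrophages, and LIF signals through the chain that IL-6 also uses. TGF-beta 1 is made by most cells as a latent precursor that is activated outside the cell.

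Levels are given as normalized RPKM (nRPKM), reads per length of gene and per sequencing depth, scaled by the authors with a size factor per library, so that levels may be compared between genes. GMP libraries held 35501671 to 51497962 reads on genes, CMP libraries 32078404 to 53264762 and BMMC libraries 18627626 to 28647216. The labels were checked on Prss57 itself, which was at 123 to 198 nRPKM in wild-type GMPs and at 0.0400 to 0.178 in Prss57-/- GMPs. It was at 17.0 to 32.0 nRPKM in wild-type CMPs, and each Prss57-/- CMP library held 1 read. In wild-type BMMCs it was at 0.0354 to 0.451 nRPKM, and no Prss57-/- BMMC library held a read. The summed level of 10 mast cell markers (among them Cpa3, Cma1 and Fcer1a) was 25826 to 76168 nRPKM in BMMCs, 497 to 742 in GMPs and 187 to 222 in CMPs. The highest BMMC value was that of Prss57-/- BMMC library 3, and the other 9 libraries were at 25826 to 47599. The BMMC cultures also carried 13 macrophage and monocyte markers at a summed 10871 to 20872 nRPKM in 9 of 10 libraries. The remaining library, Prss57-/- BMMC library 3, was at 1148. That library stood apart throughout, and results that rest on it are given with and without it. In bulk RNA, fewer cells of a type and less RNA per cell cannot be told apart.

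The upstream sequence of 5 of the genes is shown to set the type 2 and inflammatory genes beside Tgfb1, whose level was the least different between cell types. They were chosen with the levels known, and the other promoters are described after them. Each stretch covers the 250 bases before a RefSeq transcription start (GRCm38.p6), written 5′ to 3′ on the strand of the gene. Capitals mark every match, on either strand, to TATAAA (the TATA box), to NF-kB letters (3 G and 2 C with any 5 bases between them), to TGANTCA (AP-1), to GGAAA (NFAT) and to AGATAA, in which the first A may be T (GATA). The first 2 are the type 2 cytokine genes on the reverse strand of chromosome 11, the next 2 the inflammatory genes Il6 and Tnf, and the last is Tgfb1.
Il13, chr11:53634703-53634952, reverse strand: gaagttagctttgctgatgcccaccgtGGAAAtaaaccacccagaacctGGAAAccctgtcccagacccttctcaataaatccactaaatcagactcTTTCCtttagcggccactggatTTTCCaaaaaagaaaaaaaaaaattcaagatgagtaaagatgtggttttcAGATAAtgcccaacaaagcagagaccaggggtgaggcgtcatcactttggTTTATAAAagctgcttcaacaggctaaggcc
Il4, chr11:53618666-53618915, reverse strand: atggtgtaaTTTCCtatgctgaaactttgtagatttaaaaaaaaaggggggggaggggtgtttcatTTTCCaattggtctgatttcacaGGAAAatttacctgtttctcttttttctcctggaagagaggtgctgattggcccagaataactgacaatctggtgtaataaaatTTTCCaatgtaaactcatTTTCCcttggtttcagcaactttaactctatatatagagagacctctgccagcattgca
Il6, chr5:30012864-30013113, forward strand: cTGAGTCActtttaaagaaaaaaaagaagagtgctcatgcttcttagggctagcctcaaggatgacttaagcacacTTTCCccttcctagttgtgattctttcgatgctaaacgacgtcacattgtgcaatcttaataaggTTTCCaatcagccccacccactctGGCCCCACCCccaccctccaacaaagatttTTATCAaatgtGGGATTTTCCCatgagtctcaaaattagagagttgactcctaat
Tnf, chr17:35202008-35202257, reverse strand: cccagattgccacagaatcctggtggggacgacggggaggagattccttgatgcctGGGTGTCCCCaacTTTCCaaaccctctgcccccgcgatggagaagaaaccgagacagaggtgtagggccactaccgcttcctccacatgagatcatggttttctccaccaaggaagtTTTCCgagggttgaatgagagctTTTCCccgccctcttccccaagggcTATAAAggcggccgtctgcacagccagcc
Tgfb1, chr7:25686752-25687001, forward strand: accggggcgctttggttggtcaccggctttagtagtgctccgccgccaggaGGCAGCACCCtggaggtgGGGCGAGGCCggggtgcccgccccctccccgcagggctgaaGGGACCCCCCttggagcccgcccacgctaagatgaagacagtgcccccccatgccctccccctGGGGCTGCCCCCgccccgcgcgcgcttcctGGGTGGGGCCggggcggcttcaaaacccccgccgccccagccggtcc

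Among the 32851 promoters of the RefSeq table, TATAAA was found in 12.4%, the NF-kB letters in 45.8%, TGANTCA in 6.75%, GGAAA in 55.6% and the GATA letters in 16.6%. The table held 9 promoters for 8 of the 10 genes, 2 of them for Il4, and none for Ccl2 and Ccl4. The Il13 and Tnf stretches each held TATAAA 29 bases before the start, on the gene's strand. GGAAA was matched 5 times in the Il4 stretch shown, 4 times upstream of Il13, and 3 times each upstream of Il6 and Tnf, and it was not found upstream of Tgfb1. The NF-kB letters were matched 3 times upstream of Il6, 2 times upstream of Tnf and 10 times upstream of Tgfb1. These matches overlap each other in part, and the GGAAA match nearest the Il6 start lies within an NF-kB match. None was found in the Il4 and Il13 stretches. The Tgfb1 stretch had 75.2% G and C and 21 CpG dinucleotides, against 37.6% and 0 for the Il4 stretch shown, 43.2% and 3 for Il13, 42.8% and 3 for Il6, and 57.6% and 10 for Tnf. The median of all promoters was 52.4% and 6. The other Il4 start lies within the gene, and its stretch (chr11:53617339-53617588) held none of these letters, with 52.8% G and C and 1 CpG. Of the genes not shown, Lif had 63.6% G and C, with 5 NF-kB matches and 1 of GGAAA, and Csf1 had 56.4%, with 4 and 3. Both genes were higher in BMMCs. Ccl3 had 46.8%, with 0 and 2. These matches are letters in a window, and no binding was measured.

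Type 2 cytokine transcripts were found in BMMCs, with Il4 above Il13 in every library. Il4 (ENSMUSG00000000869) lies on chromosome 11 of GRCm38 from 53602982 to 53618669, and Il13 from 53631324 to 53634702, with 12654 bases between them. In wild-type BMMCs, Il4 was at 17.3, 18.6, 10.9, 12.7 and 13.7 nRPKM in libraries 1 to 5, and in Prss57-/- BMMCs at 11.8, 13.2, 45.4, 14.5 and 12.1. Library 3 of the Prss57-/- BMMCs was above the other 9, which overlapped. Il4 was low but present in progenitors, at 1.38, 1.18, 0.442 and 0.645 nRPKM in wild-type GMPs and 1.33, 0.982, 0.822 and 1.58 in Prss57-/- GMPs. It was at 0.0873 to 0.396 nRPKM in wild-type CMPs and 0.280 to 0.404 in Prss57-/- CMPs. Every GMP library was above every CMP library, and every BMMC library was above every GMP library.

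Il13 was at 2.84, 1.46, 2.13, 1.35 and 0.704 nRPKM in wild-type BMMCs, from 20 to 72 reads per library. In Prss57-/- BMMCs it was at 1.80, 1.61, 20.1, 1.45 and 0.83 nRPKM, and library 3 held 415 reads where the other 4 held 24 to 49. Hence library 3 alone was far above the wild-type libraries. Wild-type GMPs held no Il13 read, and the other progenitor groups held 3 or 4 reads over 4 libraries. Against a floor of 3 reads over the group, Il13 was at least 134-fold higher in wild-type BMMCs than in wild-type GMPs. In Prss57-/- mice, the ratio of BMMCs to GMPs was 322 (95% exact interval of the counts, 110 to 1564.5), and without library 3 it was 106 (35.8 to 522). These intervals cover counting error only.

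**Figure D1:**
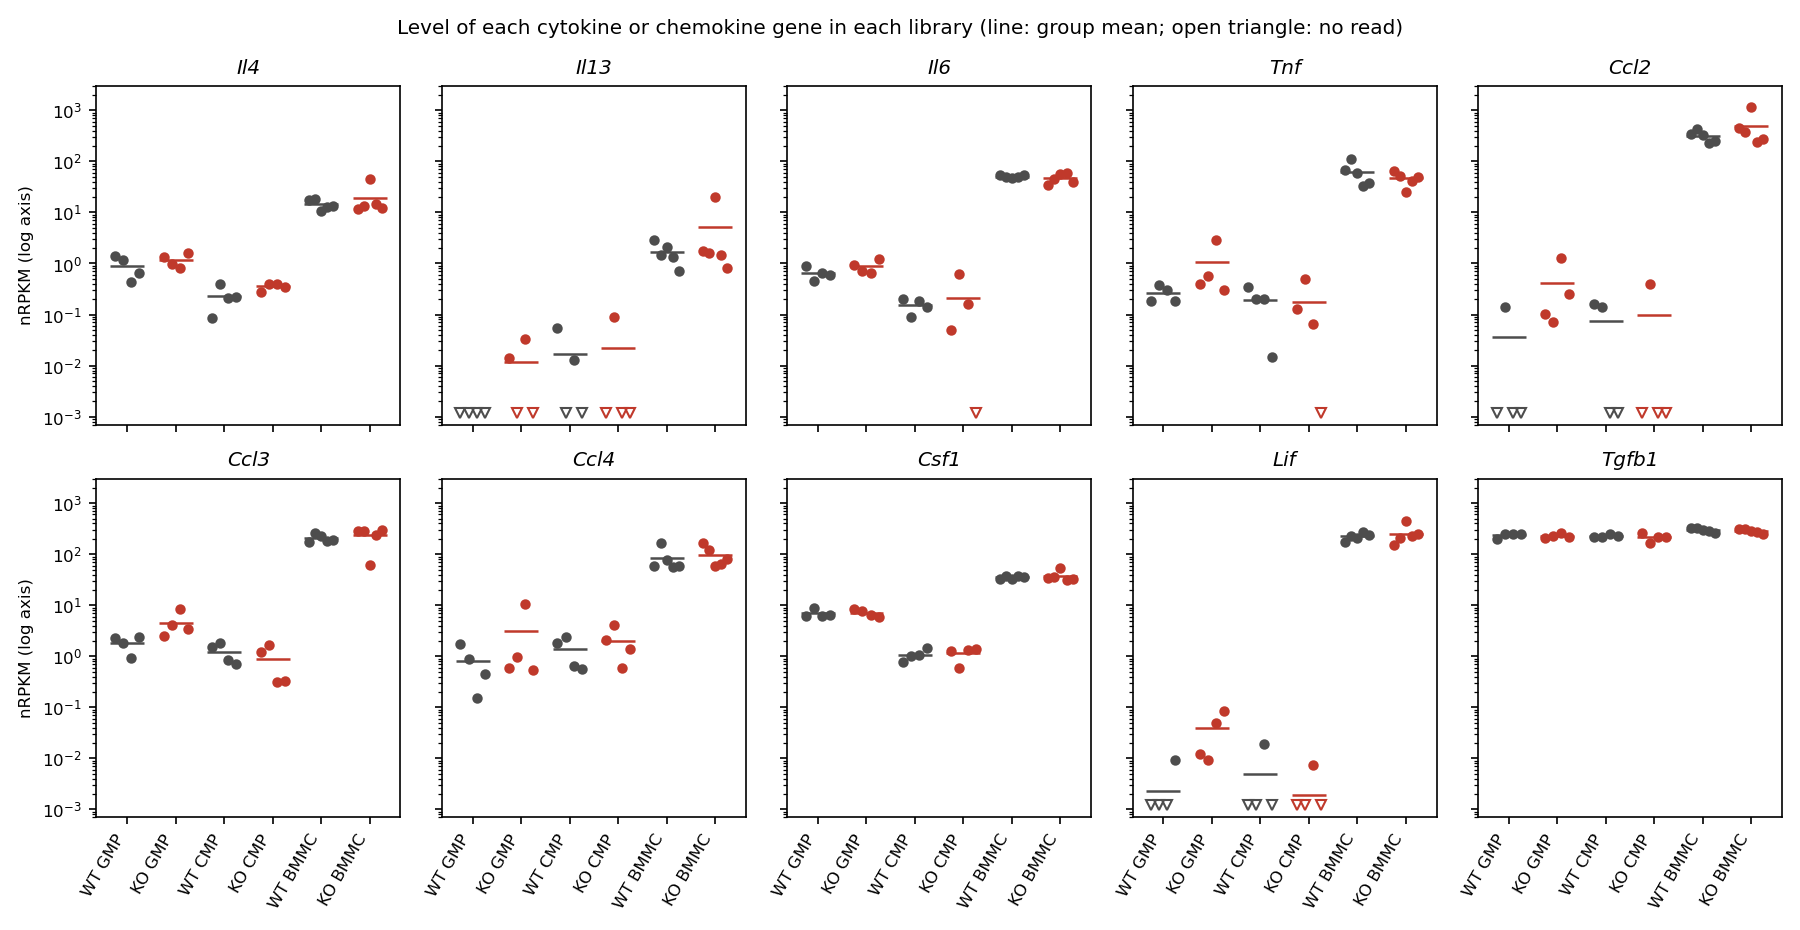
Level of each of the 10 genes in each library, in nRPKM on a log axis, with wild-type libraries in grey and Prss57-/- libraries in red, lines for group means and open triangles for libraries with no read. In every gene but Tgfb1, all BMMC libraries lie above all GMP and CMP libraries, and Tgfb1 lies between 166 and 331 nRPKM in all 26.

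Among the inflammatory cytokines, Il6 and Tnf were at similar levels in BMMCs. Il6 (ENSMUSG00000025746) was at 54.1, 49.1, 47.2, 48.9 and 53.5 nRPKM in wild-type BMMCs and at 34.8, 44.6, 56.3, 58.8 and 38.6 in Prss57-/- BMMCs. The genotypes overlapped, with a wider spread in Prss57-/- BMMCs, and library 3 lay within the range of the others. Il6 was at 0.449 to 0.892 nRPKM in wild-type GMPs, 0.665 to 1.23 in Prss57-/- GMPs, 0.0881 to 0.203 in wild-type CMPs and 0 to 0.631 in Prss57-/- CMPs.

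Tnf (chromosome 17, 35199381 to 35202007, reverse strand) was at 67.8, 109, 60.03, 33.3 and 37.4 nRPKM in wild-type BMMCs and at 65.3, 52.8, 24.9, 41.7 and 49.99 in Prss57-/- BMMCs. The groups overlapped, and library 3 of the Prss57-/- BMMCs was the lowest of the 10. In wild-type GMPs, Tnf was at 0.181, 0.383, 0.301 and 0.182 nRPKM, and in Prss57-/- GMPs at 0.405, 0.578, 2.92 and 0.300. Library 3 of the Prss57-/- GMPs was above the other 7 GMP libraries. CMP libraries held Tnf at 0 to 0.50 nRPKM.

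The chemokines Ccl2 and Ccl3 were among the most abundant of the 10 transcripts in BMMCs. Ccl2 (ENSMUSG00000035385) was at 342, 438, 322, 227 and 254 nRPKM in wild-type BMMCs and at 451, 372, 1172, 245 and 269 in Prss57-/- BMMCs. Library 3 was 3.64 times the median of the other BMMC libraries, and the others overlapped. In progenitors Ccl2 was at 0 in 8 of 16 libraries and at most 1.27 nRPKM, in Prss57-/- GMP library 3. A gene on the opposite strand, Gm17268, overlaps Ccl2 in the annotation, and the libraries were made with a stranded kit, although the strand setting of the counting is not given in the sources used here.

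Ccl3 and Ccl4 are closely related chemokines, and their genes lie 13228 bases apart on chromosome 11. Ccl3 was at 174, 264, 231, 184 and 192 nRPKM in wild-type BMMCs and at 284, 291, 60.7, 240 and 305 in Prss57-/- BMMCs. Here library 3 was the lowest of the 10, whereas 3 of the other 4 Prss57-/- libraries were above all wild-type libraries. Ccl4 was at 58.8, 166, 78.6, 56.8 and 58.2 nRPKM in wild-type BMMCs and at 164, 119, 59.0, 63.8 and 81.3 in Prss57-/- BMMCs. Wild-type library 2 and Prss57-/- library 1 were the highest, and the groups overlapped. In GMPs, Ccl3 was at 2.27, 1.79, 0.927 and 2.34 nRPKM in wild-type and at 2.44, 4.03, 8.51 and 3.38 in Prss57-/- libraries, so that every Prss57-/- library was above every wild-type library. Ccl4 was at 0.149 to 1.77 nRPKM in wild-type GMPs and at 0.578, 0.975, 10.4 and 0.550 in Prss57-/- GMPs. Only library 3 was above the wild-type range. In CMPs, Ccl3 was at 0.319 to 1.85 nRPKM and Ccl4 at 0.558 to 4.05.

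Of the growth factors, Lif was abundant in BMMCs and close to 0 in progenitors. Lif was at 174, 232, 209, 272 and 241 nRPKM in wild-type BMMCs and at 149, 203, 437, 226 and 247 in Prss57-/- BMMCs, from 12552 or more reads per library. Library 3 was the highest and the other 9 overlapped. Wild-type GMPs held 2 Lif reads in all, both in library 4, and wild-type CMPs held 5, all in library 3. Prss57-/- GMPs held 3, 2, 10 and 13 reads in libraries 1 to 4, and Prss57-/- CMPs held 2. The ratio of wild-type BMMCs to wild-type GMPs was 90385, with an exact interval of the counts from 25021 to 746350 that reflects the 2 GMP reads. The corresponding ratio in Prss57-/- mice, where GMPs held 28 reads, was 6606 (4570 to 9942).

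Csf1 (chromosome 3, 107741048 to 107760469, reverse strand) was already present in GMPs. It was at 6.13, 9.01, 6.28 and 6.42 nRPKM in wild-type GMPs, 0.768, 1.00, 1.07 and 1.43 in wild-type CMPs, and 32.0, 37.7, 32.2, 38.1 and 35.6 in wild-type BMMCs. In Prss57-/- mice it was at 8.46, 7.80, 6.37 and 5.89 nRPKM in GMPs, 1.29, 0.589, 1.31 and 1.39 in CMPs, and 34.8, 35.1, 54.2, 31.3 and 32.1 in BMMCs. The 3 cell types did not overlap in either genotype, and CMPs were the lowest.

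Tgfb1 was the exception. It was at 201, 248, 254 and 253 nRPKM in wild-type GMPs, 222, 221, 250 and 232 in wild-type CMPs, and 322, 331, 299, 280 and 257 in wild-type BMMCs. Prss57-/- libraries held it at 212 to 266 nRPKM in GMPs, 166 to 261 in CMPs and 244 to 313 in BMMCs. All neighbouring groups in the order of levels overlapped. Within wild-type mice, however, every BMMC library was above every GMP and every CMP library. Tgfb1 made up 95.4% of the summed level of the 10 genes in wild-type GMPs and 98.1% in wild-type CMPs, against 23.2% in wild-type BMMCs. The summed level was 251, 236 and 1296 nRPKM in these groups. For Il4, Csf1 and Ccl3, adjoining progenitor groups in the order of levels also stood apart, whereas for the other 6 genes all progenitor neighbours overlapped. The wild-type and Prss57-/- BMMCs overlapped in each of the 10 genes.

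Between BMMCs and GMPs, the test was applied to all genes that passed a filter on low counts, and a gene was called when its adjusted p was under 0.01 and its fold change at least 2 (quasi-likelihood test of edgeR, adjusted by the Benjamini-Hochberg method). In wild-type mice, 9 of the 10 genes were higher in BMMCs, against 27.3% of all 14754 genes tested. Il13, Ccl2 and Lif passed the filter only through BMMCs and so had to differ. Of the 7 genes that also passed it between the progenitors alone, 6 were higher, against 22.8% of all genes that did so. The median log2 difference of the 10 was 6.67, with Il13 at its fitted value or at its bound, and that of all genes was -0.0045. The log2 fold change was 3.91 for Il4 (SE 0.32, adjusted p = 2.40e-07), 6.19 for Il6 (SE 0.18, adjusted p = 6.09e-11) and 7.75 for Tnf (SE 0.46, adjusted p = 1.39e-08). It was 6.74 for Ccl3, 6.60 for Ccl4 (7.25 without wild-type GMP library 1) and 12.70 for Ccl2 (15.99 without wild-type GMP library 2, which held all Ccl2 reads of its group). Lif is given above as a ratio of reads, and Il13 as a lower bound. The smallest call was Csf1, at 2.24 (SE 0.13, adjusted p = 1.19e-08). Tgfb1 was not called, with a log2 fold change of 0.22 (SE 0.11, adjusted p = 0.0674).

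In Prss57-/- mice the same 9 genes were called higher in BMMCs, against 25.6% of genes. The calls of Il13, Ccl2 and Lif were again fixed by the filter, and 6 of the other 7 genes were higher, against 21.3% of genes tested between progenitors. The log2 fold changes were 3.94 for Il4, 5.63 for Il6, 5.37 for Tnf, 5.58 for Ccl3, 4.85 for Ccl4, 10.11 for Ccl2, 8.30 for Il13, 12.66 for Lif (13.26 without Prss57-/- GMP library 4) and 2.30 for Csf1, and that of Tgfb1 was 0.21 (SE 0.12, adjusted p = 0.145). Without Prss57-/- GMP library 3, the log2 fold change was 6.69 for Tnf, 6.10 for Ccl3, 7.03 for Ccl4, 9.18 for Il13 and 11.77 for Ccl2, and all 9 genes were still called. Without Prss57-/- BMMC library 3 it was 3.37 for Il4, 6.47 for Il13 and 9.55 for Ccl2, and the 9 genes were again called. Without both, it was 3.22 for Il4, 6.81 for Tnf, 6.32 for Ccl3, 7.13 for Ccl4, 7.32 for Il13 and 11.18 for Ccl2.

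Against CMPs, 9 of 10 genes were higher in wild-type BMMCs, where 29.6% of 15007 genes were, and 9 of 10 in Prss57-/- BMMCs, where 26.2% were. Il13, Ccl2 and Lif passed the filter only through BMMCs here too. Without them 6 of 7 genes were higher in each genotype, against 25.4% (wild-type) and 22.8% (Prss57-/-) of genes tested between progenitors. In wild-type mice the log2 fold change was 5.87 for Il4, 8.25 for Il6, 8.17 for Tnf, 7.30 for Ccl3, 5.84 for Ccl4 and 4.95 for Csf1. It was 11.90 for Ccl2, 6.36 for Il13 (7.57 without wild-type CMP library 1) and 14.90 for Lif (17.75 without wild-type CMP library 3). In Prss57-/- mice the log2 fold change was 5.64 for Il4, 8.01 for Ccl3, 5.52 for Ccl4, 4.92 for Csf1 and 16.11 for Lif. This Lif value rests on 2 CMP reads, both in library 3, and as a ratio of reads it was 96065 (26593 to 793250). Without that CMP library the fitted 17.88 rests on no CMP read. Tgfb1 was at 0.27 in wild-type mice (SE 0.10, adjusted p = 0.0190), and in Prss57-/- mice at 0.30 (SE 0.18, adjusted p = 0.161). When only library size was used for scaling, the wild-type value of Tgfb1 was -0.03. Over all alternative tests and settings, its adjusted p in wild-type mice ranged from 0.0012 to 0.775. Prss57-/- CMP library 2 held more reads of several of these genes than its group. Without it the Prss57-/- log2 fold change was 9.15 for Il6 against 7.84 with it, and 9.22 for Tnf against 8.15. That library held all 3 Il13 and all 9 Ccl2 reads of its group. With it, Il13 was at 8.15 and Ccl2 at 12.77, or 334 (114 to 1625) and 7985 (4206 to 17463) as ratios of reads. The fitted 10.72 and 16.76 without it rest on no CMP read. Without Prss57-/- BMMC library 3, the log2 fold change of Il13 was 6.36. These comparisons share the BMMC libraries with those against GMPs. The 9 higher genes moved together with mast cell and macrophage markers and with sex and run, whose part in the result was not tested.

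GMPs and CMPs came from the same run and from female mice, and here Csf1 was higher in GMPs in both genotypes. In wild-type mice, 2 of the 7 genes that passed the filter were called higher in GMPs, against 6.28% of genes. Csf1 differed by 2.72 on the log2 scale (SE 0.22, adjusted p = 8.05e-06) and Il6 by 2.09 (SE 0.36, adjusted p = 0.00143). Il4 differed by 1.99 (SE 0.54, adjusted p = 0.0159) and was not called, although DESeq2 gave it an adjusted p of 0.00132. The other 4 genes were not called, with log2 differences of 0.59 for Ccl3, 0.45 for Tnf, 0.07 for Tgfb1 and -0.73 for Ccl4.

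In Prss57-/- mice, 2 of 7 genes were called higher in GMPs, against 4.04% of genes, and these were Csf1 (2.67, SE 0.29, adjusted p = 0.000359) and Il4 (1.76, SE 0.37, adjusted p = 0.00861). The call of Il4 was close to the threshold. It was lost with limma voom (adjusted p = 0.0115), with library size scaling, with no filter and with the replicate block. It was also lost when any 1 of the 8 libraries was left out (0.0117 to 0.0327). Over all alternatives its adjusted p ranged from 3.83e-05 to 0.0327. Il6 differed by 2.23 (SE 0.93, adjusted p = 0.108) and Ccl3 by 2.48 (SE 0.62, adjusted p = 0.0208). Tnf, Ccl4 and Tgfb1 differed by 2.78, 0.73 and 0.14 and were not called. Lif, which did not pass the filter, had 28 reads in Prss57-/- GMPs and 2 in Prss57-/- CMPs (two-sided exact permutation test, p = 0.0286). Without Prss57-/- CMP library 2, in which Il6 was at 0.631 nRPKM, Il6 and Ccl3 were called (adjusted p = 0.00872 and 0.00939). Basophil markers also differed between the sorted populations, at a summed 1637 to 2499 nRPKM in GMPs and 24.3 to 75.7 in CMPs, with all 4 markers detected in each. Neutrophil markers were at 856 to 5284 and 13.2 to 84.7 nRPKM. Their part in these differences was not tested.

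Between genotypes in BMMCs, none of the 10 genes was called, and neither was any other of the 13938 genes tested (0%). The log2 difference of Prss57-/- over wild-type was 1.59 for Il13 (SE 0.89), 0.66 for Ccl2 (SE 0.42), 0.40 for Il4 (SE 0.39) and -0.39 for Tnf (SE 0.34), each with an adjusted p of 1.00 from edgeR. For the other 6 genes it lay between -0.12 and 0.22. At an unadjusted p under 0.05, none of the 10 genes passed in edgeR or limma voom and none of the 9 genes to which DESeq2 gave an adjusted p, against 2.38% of all genes in edgeR. The values of the type 2 cytokines rested on Prss57-/- BMMC library 3. Without it, the difference was -0.27 for Il13 (SE 0.36), -0.19 for Il4 (SE 0.15), 0.07 for Ccl2 (SE 0.22), -0.13 for Lif (SE 0.16) and -0.08 for Csf1 (SE 0.07). Then Ccl3 alone passed an unadjusted p of 0.05, at 0.42 (SE 0.12, unadjusted p = 0.00590 by edgeR, adjusted p = 0.557), where 1031 of 14162 genes did.

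**Figure D2:**
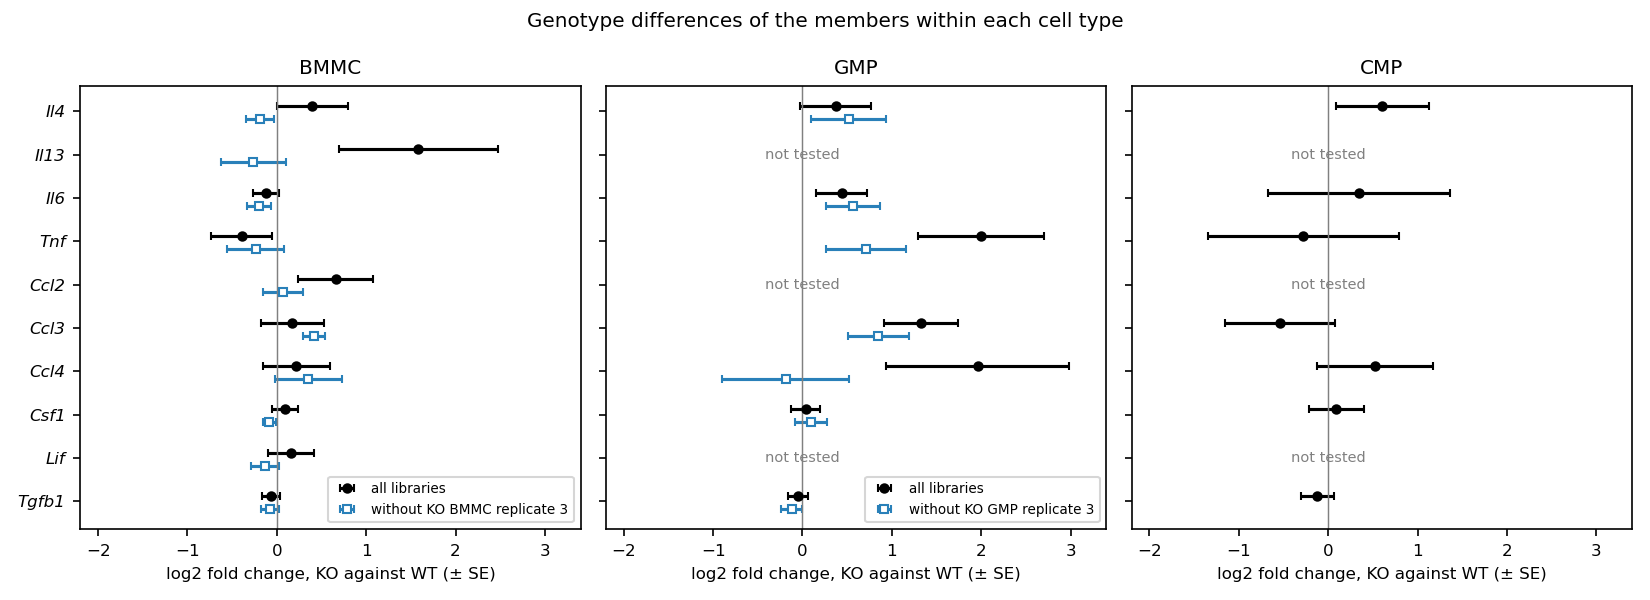
Log2 difference of Prss57-/- over wild-type libraries for the 10 genes in BMMCs and for the 7 genes tested in GMPs and CMPs, with all libraries and without the library that stood apart in BMMCs and GMPs. Bars are standard errors from edgeR, and none of the differences passed the threshold.

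In GMPs, none of the 7 genes tested was called between genotypes, against 0.00681% of genes. Ccl3 was higher in Prss57-/- GMPs by 1.33 on the log2 scale (SE 0.42, unadjusted p = 0.00931 by edgeR, adjusted p = 1.00) and higher in 4 of 4 libraries, a separation that 0.422% of genes showed. Tnf was higher by 2.00 (SE 0.71, unadjusted p = 0.0177, adjusted p = 1.00), and these 2 of 7 passed an unadjusted p of 0.05, against 0.81% of genes. Of these, Ccl3 alone passed with limma voom and Tnf alone with replicate number as a block. Without Prss57-/- GMP library 3, the difference was 0.85 for Ccl3 (unadjusted p = 0.0347 by edgeR), 0.71 for Tnf (unadjusted p = 0.144) and -0.19 for Ccl4, whose value had been 1.96 with that library. Il4 (0.37), Il6 (0.44), Csf1 (0.04) and Tgfb1 (-0.05) differed by less. Lif, which did not pass the filter, had 28 reads in Prss57-/- and 2 in wild-type GMPs (p = 0.0286 in a two-sided exact permutation test, 1 of 12 such tests and the lowest value possible with 4 against 4 libraries). Its level there was 0.0093 to 0.0832 nRPKM, from 2 to 13 reads per library. Ccl2 had 67 and 7 reads (exact permutation test, p = 0.0857), of which 51 were in library 3.

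In CMPs, none of the 7 genes was called, against 0.0067% of genes, and none passed an unadjusted p of 0.05, against 0.51%. The largest difference was 0.61 for Il4 (SE 0.52), and Tnf had the widest error, at -0.28 (SE 1.07). Il6 was at 0.35, Ccl3 at -0.54, Ccl4 at 0.53, Csf1 at 0.09 and Tgfb1 at -0.12. Il13, Ccl2 and Lif did not pass the filter and held 2 to 12 reads per CMP group (exact permutation test, p = 1.00 for each). The genotype effects in GMPs and CMPs were compared as an interaction, and no gene was called (0%). Ccl3 had the smallest unadjusted p, 0.0268 by edgeR (log2 difference 1.88, SE 0.77, adjusted p = 1.00). Between BMMCs and GMPs no interaction was called either (0%), and Lif and Tnf had unadjusted p-values of 0.00780 and 0.00820 by edgeR (adjusted p = 1.00). Without both Prss57-/- libraries numbered 3, Tnf was no longer under 0.05 and Lif and Il6 were.

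Prss57-/- BMMC library 3 lay outside the range of the other BMMC libraries for most genes tested. It also split the 10 genes, so that standing outside was not particular to them. It was above the other 9 BMMC libraries for Il13 (13.8 times their median), Ccl2 (3.64), Il4 (3.45), Lif (1.93) and Csf1 (1.56), where 34.8% of genes were above. It was below them for Ccl3, with a median of the others 3.95 times higher, and for Tnf, 2.12 times higher, where 36.9% of genes were below. Il6, Ccl4 and Tgfb1 were within the range. In the same library Cma1, a mast cell chymase, was at 14490 nRPKM against 1565 to 3836 in the others, and Mcpt4 at 738 against 64.9 to 142. The tryptase Tpsab1 was at 13.3 nRPKM against 513 to 1178. Of the 10 mast cell markers, 7 were above the other libraries and 2 below. All 13 macrophage and monocyte markers were below the other libraries, with Lyz2 at 978 nRPKM against 9432 to 18667. All 8 dendritic cell markers tested were below as well, and their summed level was 74.5 against 889 to 1922. Among other chemokine genes, Ccl6 was at 364 nRPKM against 2488 to 5086 and Ccl9 at 52.5 against 381 to 613, while Ccl1 was at 13.5 against 1.03 to 5.19. Il4ra, the IL-4 receptor chain, was at 536 nRPKM against 152 to 185, and Egr1, an immediate-early gene, at 1053 against 321 to 499. These named genes did not stand for their lists. Of 14 genes tested for receptors of the 10, 4 were above the other libraries and 9 below. Their median log2 ratio to the other libraries' median was -2.595, against -0.0092 for all genes tested. Of 20 other cytokine and chemokine genes tested, 4 were above and 12 below, with a median of -1.99. Of 22 immediate-early and feedback genes, 7 were above and 7 below, with a median of 0.02. The part of other cells in these values was not tested.

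**Figure D3:**
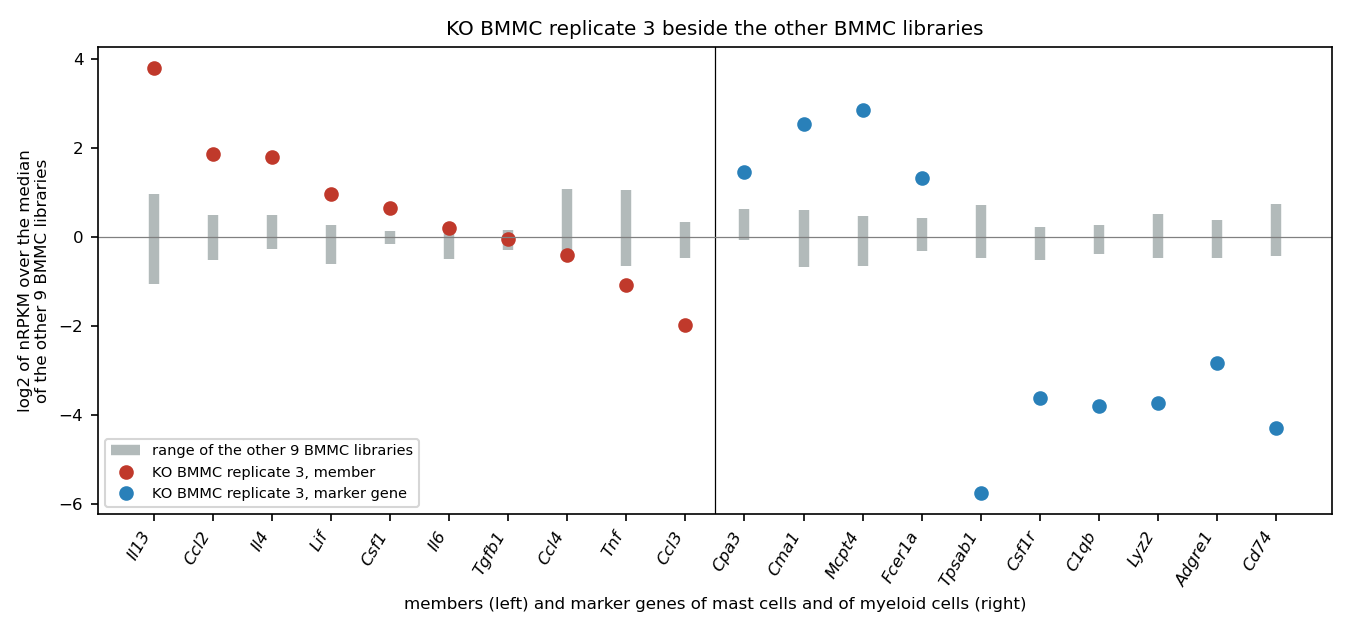
Level in Prss57-/- BMMC library 3 over the median of the other 9 BMMC libraries, on a log2 axis, for the 10 genes and for marker genes, with the range of the other libraries beside each. Il13, Ccl2, Il4, Lif and Csf1 lie above that range, and Ccl3, Tnf and the macrophage markers lie below it.

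Prss57-/- GMP library 3 was above the other 7 GMP libraries for Ccl4 (18.1 times their median), Tnf (9.70), Ccl3 (3.64) and Tgfb1 (1.18), 4 of the 7 genes tested, where 7.52% of genes were above. Il4, Il6 and Csf1 were within the range. The same library held Cxcl10 at 7.61 nRPKM against 0.536 to 1.48 and Il1b at 3.26 against 0 to 0.439. It was above the others in 8 of 12 macrophage and monocyte markers tested, with C1qb at 5.20 nRPKM against 0.109 to 0.667, although their summed level of 1785 lay within 1210 to 2028. The part of such cells was not tested.

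The receptors, regulators and neighbours of the 10 genes were taken as whole lists. Of 14 receptor genes tested, 9 were higher and 2 lower in wild-type BMMCs than in wild-type GMPs, against 27.3% higher and 24.4% lower among all genes. The chemokine receptor Ccr1 (log2 fold change 4.37), the shared chain Il4ra (4.04) and Il13ra1 (5.27) were higher, and Tnfrsf1a (-1.28) and Il6ra (-1.17) lower. Ccr2, the receptor of CCL2, was not called (0.63). The 2 TGF-beta receptor genes were higher, Tgfbr1 by 3.12 and Tgfbr2 by 3.57, where Tgfb1 was not called. The median log2 difference of the receptors was 3.01.

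Of 30 other cytokine and chemokine genes reported in mast cells, 21 were tested, of which 17 were higher and 2 lower in wild-type BMMCs. Among all genes 27.3% were higher and 24.4% lower. Of these 17, 7 passed the filter only through BMMCs, Il1a, Csf2 and Cxcl2 among them. Of the 14 also tested between progenitors, 10 were higher, against 22.8% of all such genes. Osm (6.80), a relative of Lif encoded beside it, Il1a (9.79) and Ccl6 (7.95) were higher, and Mif (-2.77) and Cxcl10 (-2.02) were lower. Cxcl2 and Csf2 had no read in wild-type GMPs and were at 39.5 ± 10.99 and 3.36 ± 1.73 nRPKM (SD, n = 5) in wild-type BMMCs. Of 22 immediate-early and feedback genes, 20 were higher, 7 of them having passed the filter only through BMMCs. Of the 15 also tested between progenitors, 13 were higher, against the same 22.8%. Egr1 was at 384 ± 68.4 nRPKM in BMMCs and 0.0921 ± 0.0385 in GMPs (SD, n = 5 and 4). Dusp2 was lower (-2.34), and Nr4a2 was not called (0.95). Immediate-early transcripts also respond to handling of cells, which differed between culture and sorting, and its part was not tested.

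Genes that act on these transcripts and proteins were mostly higher as well, 11 of 15 tested. All 15 were also tested between progenitors, and 22.8% of all such genes were higher. Among them were Zfp36 (3.81) and Zfp36l1 (7.08), which promote decay of cytokine mRNAs, Furin (4.58), which cleaves the TGF-beta 1 precursor, and Thbs1 (6.99), whose product can activate it. Adam17, the sheddase of TNF, differed by 0.88 and was not called for its fold, and Ltbp1 was lower (-2.27). Of 20 transcription factor genes, 12 were higher, and of the 19 also tested between progenitors, 11 were. Among them were Irf4 (9.13, which passed the filter only through BMMCs), Maf (6.88), Gata3 (6.46) and Nfatc2 (6.33), and Cebpa was lower (-1.88). Rela, Stat5b and Ikzf1 differed by 0.15, -0.09 and 0.08 and were not called.

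**Figure D4:**
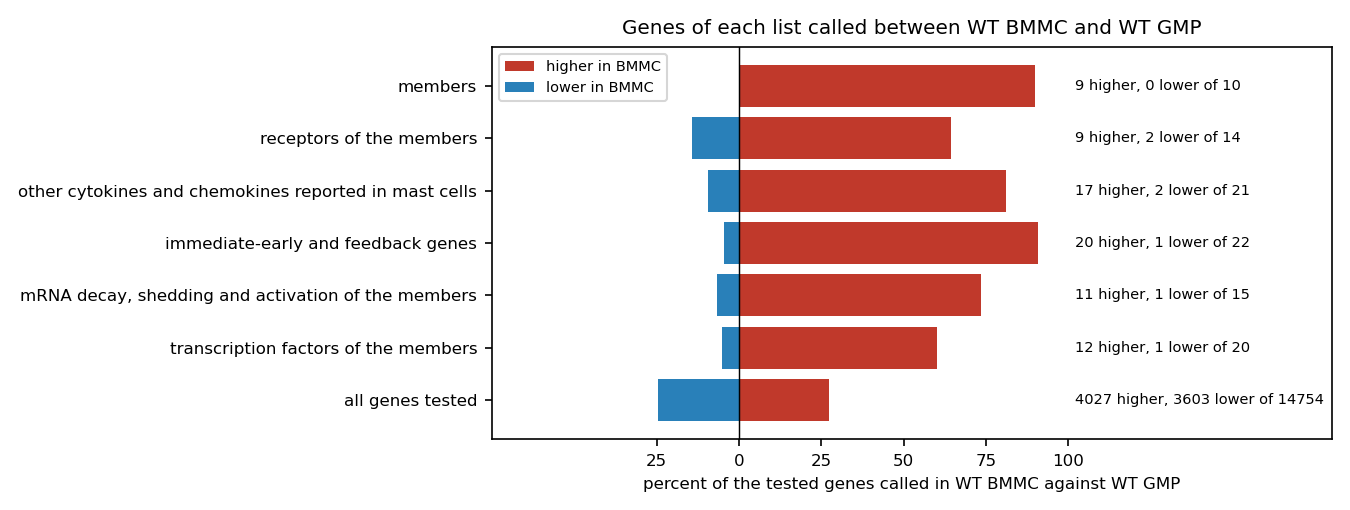
Percent of the tested genes of each list called higher (red, right) or lower (blue, left) in wild-type BMMCs than in wild-type GMPs, with the counts beside the bars. Each of the 6 lists plotted has a larger share higher than the 27.3% of all genes tested, and the counts include genes that passed the filter only through BMMCs.

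Genome neighbours did not all follow. Around Il4 and Il13, Csf2 and Kif3a (2.59) were higher in wild-type BMMCs, Irf1 (-0.41) and Rad50 (0.45) were not called, and Il5 and Il3 were not tested. In the Ccl locus, all 6 tested of 9 neighbours were higher, among them Ccl7, with 3 reads in wild-type GMPs and 65.7 ± 20.6 nRPKM (SD, n = 5) in wild-type BMMCs. Of the 6, Ccl1, Ccl7 and Ccl12 passed the filter only through BMMCs and so had to differ, and the other 3 were Ccl5 (4.70), Ccl6 (7.95) and Ccl9 (1.49). Among all genes also tested between progenitors, 22.8% were higher. Beside Tnf, Ltb (-0.19) and Nfkbil1 (-0.41) were not called and Lst1 was lower (-1.46), and beside Lif, Osm was higher and Hormad2 lower (-1.76). Between genotypes, no gene of any of these lists was called in any cell type.

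For likeness, counts were scaled to the library total adjusted by TMM normalization (CPM). The genes most like each of the 10 were named by Pearson's r of log2 CPM over all 26 libraries, as a description. These libraries fall into BMMCs and progenitors, which share no run, sex or culture. For Il4 they were E330020D12Rik, Cma1 and Entpd1 (r = 0.993 to 0.990), and for Il6 they were Rgs14, Mospd2 and Cpa3 (0.992 to 0.990). For Tnf they were Gpnmb, Ccl3 and Ccl7 (0.990 to 0.987), and for Ccl4 they were Ccl7, Tnf and Nfkbiz (0.976 to 0.974). Lif had Kdm5d as its most alike gene (0.999), a gene of the Y chromosome, and the BMMC libraries came from male and the progenitors from female mice. For Tgfb1 the values were lowest, 0.910 for Runx3, 0.908 for Lmf2 and 0.906 for Rela.

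Within the 10 BMMC libraries, Il4 and Il13 had r = 0.871 with each other, and Il4 and Ccl3 had -0.891. Without Prss57-/- library 3 these were 0.164 and -0.324 over 9 libraries. Over those 9 libraries, r was 0.857 for Tnf and Ccl2, 0.869 for Ccl2 and Ccl4, and 0.806 for Il13 and Tgfb1, and no other pair exceeded 0.8. The libraries share a run, and their depth differed. The 3 genes most like each of the 10 over the BMMC libraries made 30 pairs, of which 7 remained without that library.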

How the data were processed

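RNA sequencing of 26 libraries in 6 groups was analysed. Reads had been aligned by the authors with GSNAP to the GRCm38 genome, and the authors deposited, for each library, raw counts per gene of the reads that aligned uniquely in its exons. The authors also deposited RPKM values divided by a size factor per library (nRPKM). The alignment was not repeated. Of 52636 genes, 52403 were matched to a gene name of GENCODE M21. Positions of genes were taken from GENCODE M21 and upstream sequences from RefSeq (GRCm38.p6).

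Groups were taken from the labels. Counts were compared in R 4.3.3 with edgeR 4.0.16, using TMM normalization, filterByExpr and robust dispersions in the quasi-likelihood test. The Benjamini-Hochberg adjustment covered every gene in a fit. A gene was called at an adjusted p under 0.01 with a difference of 2-fold or more, and interactions at an adjusted p under 0.01. SE is the absolute log2 fold change over the square root of the F statistic. Genes that did not pass the filter were compared on nRPKM with an exact two-sided permutation test. The fits were tested on simulated data. Likeness was Pearson's r of log2 TMM-normalized CPM with an offset of 0.5, and the 3 most alike genes were named. Tables and figures were made with Python 3.11.15, matplotlib 3.10.9, scipy 1.17.1, numpy 2.4.6 and pandas 2.3.3.

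Alternatives were limma 3.58.1 with voom, DESeq2 1.42.0, scaling by RLE or by library size alone, keeping every gene with 1 read, dispersion without the robust option, a block for replicate number, an adjusted p under 0.05 with no fold limit, and each library left out in turn. Leaving out both Prss57-/- libraries numbered 3 was chosen after seeing the data.

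The 10 genes and the lists beside them were chosen with earlier results of these data known. The naming rule took the 10 genes, up to 4 called genes per list and direction by size of change, and listed genome neighbours, and other list genes were named after their values were seen. A gene was taken to pass the filter only through BMMCs where it did not pass it between GMPs and CMPs of the same genotype. Depth ranged from 18627626 reads on genes (a BMMC library) to 53264762 (a CMP library). Reads without molecular identifiers are not independent molecules, so intervals (95%, exact) and the floor of 3 reads per group cover counting error only. Nothing in the labels ties libraries to single mice, so p-values measure the spread between these libraries.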

Additional observations from a re-analysis of the deposited data

Results flagged for a closer look

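In groups of 4 or 5 libraries, a library was singled out for a gene when its gap to the nearest of the others was large against the range of the group (Dixon's 95% limit). This was so for 18 of the 59 pairs of gene and group that could be tested. The limit gives about 1 in 20 for normally distributed values. A library that held the only reads of its group was singled out by construction, and the pairs share libraries. The share singled out can therefore not be set against that rate.

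Prss57-/- BMMC library 3 accounted for 5 of them. It was at 45.4 nRPKM for Il4, 20.1 for Il13, 1172 for Ccl2 and 54.2 for Csf1, above its group, and at 60.7 for Ccl3, below it. Prss57-/- GMP library 3 accounted for 3, at 2.92 nRPKM for Tnf, 1.27 for Ccl2 and 10.4 for Ccl4. Their markers stand in the text above.

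Prss57-/- CMP library 2 was high for Il13 (0.0887 nRPKM, from 3 reads) and Ccl2 (0.394, from 9 reads) and low for Csf1 (0.589). Wild-type GMP library 2 was high for Ccl2 (0.142 nRPKM, from 7 reads) and Csf1 (9.01). Wild-type BMMC library 2 was high for Ccl4, at 166 nRPKM. Wild-type GMP library 1 was low for Tgfb1, at 201 nRPKM. Lif was singled out where 1 library held the only reads of its group, at 0.0092 nRPKM in wild-type GMP library 4, 0.0195 in wild-type CMP library 3 and 0.0075 in Prss57-/- CMP library 3.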

How the results depend on the processing

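The 9 genes called higher in BMMCs than in GMPs or CMPs were called in both genotypes under each alternative that gave them an adjusted p, and none of the 10 genes was called between genotypes under any alternative run. DESeq2 gave no adjusted p for Il13 between genotypes in BMMCs or in the Prss57-/- comparisons of BMMCs with GMPs and CMPs, or for Ccl4 between genotypes in GMPs. The number of genes called higher in Prss57-/- GMPs than CMPs was 2, and 1 with limma voom, library size scaling, no filter and the replicate block. With 1 library left out it was 1 to 3. Library size scaling shifted the median log2 difference of all genes by up to -0.31. With it, 764 genes were higher and 1228 lower in wild-type GMPs than CMPs, against 940 and 978, and in Prss57-/- mice 408 and 701, against 604 and 655. Tgfb1 then differed by -0.0666 between wild-type GMPs and CMPs, by -0.0011 between Prss57-/- BMMCs and GMPs and by -0.0341 between wild-type BMMCs and CMPs.

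Directions that turned were all of differences that were not called. Between genotypes, Ccl3 in BMMCs was at -0.0324 with limma voom, and Il6 in CMPs at -1.17 with limma voom and -0.66 with the replicate block. Ccl4 between Prss57-/- GMPs and CMPs was at -0.0912 with limma voom and -0.600 with the replicate block. With 1 library left out, the genotype difference in BMMCs ranged from -0.19 to 0.55 for Il4, -0.27 to 1.86 for Il13, -0.0422 to 0.62 for Ccl4, -0.082 to 0.15 for Csf1 and -0.13 to 0.32 for Lif. In GMPs it ranged from -0.19 to 2.65 for Ccl4, -0.0444 to 0.19 for Csf1 and -0.12 to 0.000907 for Tgfb1. In CMPs it ranged from -1.09 to 0.77 for Il6, -1.49 to 0.17 for Tnf, -0.0321 to 0.92 for Ccl4 and -0.0401 to 0.30 for Csf1. Ccl4 between Prss57-/- GMPs and CMPs ranged from -1.44 to 1.26. The cause was not tested. Of the 30 pairs of most alike genes over the BMMC libraries, 7 to 21 remained with 1 library left out.

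Replicate numbers did not pair the libraries throughout. Between genotypes in CMPs, 3 of 4 same-numbered pairs correlated at over 0.1, with a mean of 0.16 against -0.06 for other pairs. The mean correlation of same-numbered libraries' deviations was -0.06 to 0.18 over the 9 comparisons, and in no comparison was every pair over 0.1. With the replicate block, no call changed other than that of Il4 between Prss57-/- GMPs and CMPs (adjusted p = 0.0302). At these depths, Il13 was at the limit of counting in progenitors. So were Ccl2 and Lif outside Prss57-/- GMPs, which held 67 Ccl2 reads, 51 of them in library 3, and 28 Lif reads.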

Other observations

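Receptors of the 10 gene products also differed between the sorted progenitors. Of 14 receptor genes tested, 5 were called higher in wild-type GMPs than in wild-type CMPs and none lower, against 6.28% of all genes higher. Among them were Ccr1, a receptor of CCL3 (log2 fold change 2.65), both TNF receptors, Tnfrsf1b (1.58) and Tnfrsf1a (1.18), and Il6ra (1.26). In Prss57-/- mice 3 of 14 were called higher, against 4.04%. Of 19 transcription factor genes tested, Cebpb, Cebpa, Mitf and Spi1 were called higher in wild-type GMPs and Gata3 and Gata1 lower. Among all 14967 genes tested, 940 were higher and 978 lower. Of 15 immediate-early and feedback genes tested, 3 were called higher and 1 lower, and Egr1 differed by -3.69 on the log2 scale.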
